A study of Mus musculus with 5 samples.

Results

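Somatostatin-led cells are the dissociated mouse islet cells in which somatostatin mRNA (Sst) made up at least 3% of the cell's transcripts and exceeded insulin (Ins1 plus Ins2), glucagon (Gcg) and pancreatic polypeptide (Ppy) mRNA. The cells were thus chosen by their measured hormone mRNA, and 111 of 4687 cells (2.37%) met the rule in 5 inDrop libraries, a droplet method that counts single RNA molecules by unique molecular identifiers (UMIs). The libraries came from islets of C57BL/6 mice in 3 states: 2 postpartum, 2 pregnant and 1 non-pregnant. No treatment, genetic change, age, day of pregnancy or day after birth is given in the labels. They do not say how many mice each library holds, so the spread between 2 libraries of a state may be technical. Because these hormones chose the cells, their levels are given as a description and carry no test.

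Somatostatin is the product of the delta cell, which lies among the insulin-secreting beta cells and glucagon-secreting alpha cells and restrains both through local somatostatin receptors. Its release follows glucose, cyclic AMP and urocortin 3 made by beta cells. In pregnancy the islet responds to placental lactogens and prolactin through the prolactin receptor, a response described mainly in beta cells.

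The Sst gene is switched on by cyclic AMP through a short palindrome close upstream of its start, first described in the rat gene. The bases upstream of the mouse start, from RefSeq on GRCm38.p6 at chr16:23890845-23890994, minus strand, are shown because Sst defines the cells, with the palindrome TGACGTCA in capitals.
Sst upstream: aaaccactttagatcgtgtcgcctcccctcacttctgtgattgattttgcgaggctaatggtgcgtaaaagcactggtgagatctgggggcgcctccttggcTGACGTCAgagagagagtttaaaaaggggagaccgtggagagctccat
The first base of the palindrome stood 48 bases before the start. It reads the same on both strands and was present in the 250 bases upstream of 478 of 27025 mouse genes with a listed promoter (1.77%).

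The members were spread unevenly over libraries of very different depth. They numbered 13 of 557 cells in postpartum 1, 25 of 1126 in postpartum 2, 28 of 1993 in pregnant 1, 6 of 164 in pregnant 2 and 39 of 847 in the non-pregnant library. As shares these were 2.33% (exact 95% interval 1.25 to 3.96) and 2.22% (1.44 to 3.26) in the postpartum libraries, 1.40% (0.936 to 2.02) and 3.66% (1.35 to 7.79) in the pregnant ones, and 4.60% (3.29 to 6.24) in the non-pregnant one. The intervals cover counting error only, and with 1 or 2 libraries a state no test over libraries was run. A member held a median of 173 and 555 UMIs in the postpartum libraries, 484.5 and 94.5 in the pregnant ones and 2169 in the non-pregnant one. The pregnant 2 members summed to 575 UMIs, 319 of them over 51 shared non-hormone genes. The non-pregnant members summed to 100466 UMIs, 54411 of them over 5829 such genes. The non-pregnant file also lists 40930 features where the other 4 list 6695, so the non-pregnant state cannot be told apart from the way its file was made.

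Sst itself was lowest in pregnant 1 and highest in the non-pregnant library. Pooled over members it took 7.12% and 8.47% of UMIs in the postpartum libraries, 4.56% and 14.96% in the pregnant ones and 16.3% in the non-pregnant one. Single members ranged from 4.08% to 12.1% in postpartum 1 and from 3.48% to 12.3% in postpartum 2. They ranged from 3.13% to 8.17% in pregnant 1, from 4.84% to 25.3% in pregnant 2 and from 5.45% to 33.4% in the non-pregnant library. The 2 pregnant libraries thus lay far apart, pregnant 1 lowest of all and pregnant 2 just below the non-pregnant library, and no order of the states could be read from Sst. In insulin-led cells, which should lack the transcript, pooled Sst was 0.0496%, 0.116%, 0.228%, 0.0448% and 0.559% in the same library order. The lowest members stood at 3.13% in pregnant 1 and 3.48% in postpartum 2, and the highest Sst-leading cell just outside the 3% threshold stood at 2.995%, in pregnant 1. In all 2 cells of postpartum 1, 9 of pregnant 1 and 1 of pregnant 2 had Sst as the leading hormone below the threshold. At least 3% Sst with another hormone leading or tied was found in 6, 12, 14, 0 and 23 cells.

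The members also carried other islet hormones. Peptide YY mRNA (Pyy), a gut and islet hormone, took 3.82% and 3.40% of member UMIs in the postpartum libraries, 5.65% and 0% in the pregnant ones and 7.08% in the non-pregnant one. Pyy had at least 1 UMI in 13 of 13, 25 of 25, 27 of 28, 0 of 6 and 39 of 39 members. In insulin-led cells Pyy took 0.174%, 0.329%, 1.13%, 0.161% and 0.696%, so in 4 libraries the members lay above them. Islet amyloid polypeptide (Iapp), co-secreted with insulin, took 1.95%, 0.671%, 2.19%, 0.348% and 3.74% of member UMIs, below the insulin-led cells of every library (7.28%, 2.56%, 4.66%, 3.08% and 5.87%). Iapp was higher in members than in glucagon-led cells (0.466%, 0.293%, 0.698%, 0.0428% and 0.589%). The same held against Ppy-led cells (0.283%, 0.126%, 0.884%, 0% and 0.437%). Insulin itself took 0.636%, 1.17%, 0.899%, 0% and 1.17% of member UMIs. Ppy, the hormone of the gamma cell, took 1.23%, 1.51%, 1.07%, 0% and 1.98%. Within a library, members with more Sst tended to have less Ppy in postpartum 1 (Spearman rho -0.60 over 13 cells) and the non-pregnant library (-0.58 over 39 cells), less so in postpartum 2 (-0.32) and not in pregnant 1 (-0.02). Both are shares of the same total, and the rule kept only cells with Sst above Ppy. The part of either in these correlations was not tested. A second hormone reached 0.2 of the Sst level in 6, 13, 15, 0 and 15 members.

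**Figure D1:**
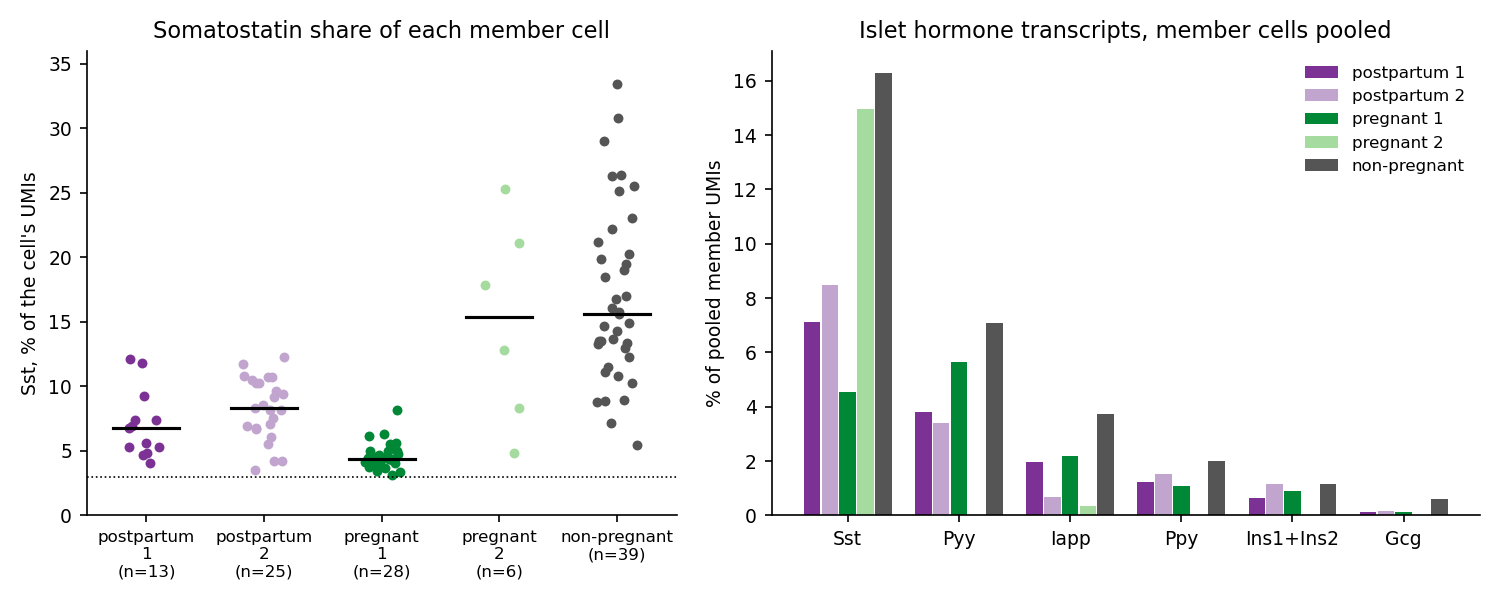
Left, Sst as a percentage of the UMIs of each member cell (points) with the median per library (bars) and the 3% threshold (dotted line). Right, 6 islet hormone transcripts as a percentage of pooled member UMIs in each library. Pregnant 1 members lie lowest and non-pregnant members spread up to 33.4%.

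The delta-cell identity was checked on 5 further markers that the rule did not use, with Sst and the other islet hormones left out of the denominator (CPM, UMIs scaled to 1000000 over the 6619 shared non-hormone genes). Levels are means over cells, compared between hormone-led classes within libraries by limma on log2(mean CPM + 100), with Benjamini-Hochberg adjustment over 2394 genes. Classes with under 10 cells in a library, among them the 6 members of pregnant 2, were left out of the fit. Cd24a, a small glycosylated surface protein, had 631 and 949 CPM in the postpartum members, 838 and 0 CPM in the pregnant ones and 1699 CPM in the non-pregnant ones. Insulin-led cells had 33.9, 87.2, 115, 0 and 80.6 CPM of Cd24a. In all 4 fitted libraries the members were higher, and Cd24a was called higher than insulin-led (log2 difference 2.59, SE 0.50, adjusted p 0.0032), glucagon-led (2.52, adjusted p 0.0071) and Ppy-led cells (2.72, adjusted p 0.0057).

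Efnb3, the membrane-bound ligand ephrin-B3, had 916, 579, 229, 0 and 430 CPM in the members, from 1, 4, 3, 0 and 19 UMIs, and 14.4, 10.7, 28.6, 0 and 5.95 CPM in insulin-led cells. It was called higher than insulin-led (2.36, SE 0.55, adjusted p 0.020) and glucagon-led cells (2.36, adjusted p 0.027) but not than Ppy-led cells (1.51, adjusted p 0.234), and its call against insulin-led cells was lost without any one of the 4 fitted libraries (adjusted p 0.0646 to 0.169). Rbp4, which encodes the plasma retinol carrier, had 0, 2069, 4589, 0 and 5564 CPM in the members and 87.7, 167, 470, 0 and 315 CPM in insulin-led cells. With no Rbp4 UMI among the 1271 non-hormone UMIs of the postpartum 1 members, its differences did not pass (2.04, adjusted p 0.229 against insulin-led cells, and 0.54, adjusted p 0.844 against glucagon-led cells). Without postpartum 1, Rbp4 passed against insulin-led cells (3.08, adjusted p 0.0057) and Arg1 did so too (2.69, adjusted p 0.0057). Arg1, an enzyme of arginine breakdown, had 0, 316, 2476, 0 and 845 CPM and missed the threshold against insulin-led cells (1.98, adjusted p 0.0505). Hhex, the transcription factor that maintains delta cells in mice, had 0, 2, 1, 0 and 13 UMIs and fell below the filter of a mean of 100 CPM. Without the non-pregnant library, Cd24a missed the threshold against all 3 classes (adjusted p 0.134 to 0.201), and without postpartum 2 likewise (0.0669 to 0.138). It also did so against glucagon-led cells without pregnant 1 (0.0737) and against Ppy-led cells without postpartum 1 (0.0547).

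In the non-pregnant library, where depth allows single cells to be read, each marker was found in a larger share of members than of the other classes. Rbp4 had a UMI in 94.9% of members, against 20.1% of insulin-led, 43.5% of glucagon-led and 30.3% of Ppy-led cells. Cd24a had one in 74.4% of members, against 9.30%, 4.35% and 6.06%. Arg1 had one in 53.8%, against 3.81%, 8.70% and 9.09%, and Hhex in 25.6%, against 2.74%, 1.09% and 3.03%. Median depth was similar, at 2169 UMIs in members and 2672.5 in insulin-led, 2220 in glucagon-led and 2672 in Ppy-led cells. With each cell thinned to 1000 UMIs, which left out no cell, Rbp4 remained in 82.1% of members and 9.76% of insulin-led cells, and Hhex in 12.8% and 0.762%.

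**Figure D2:**
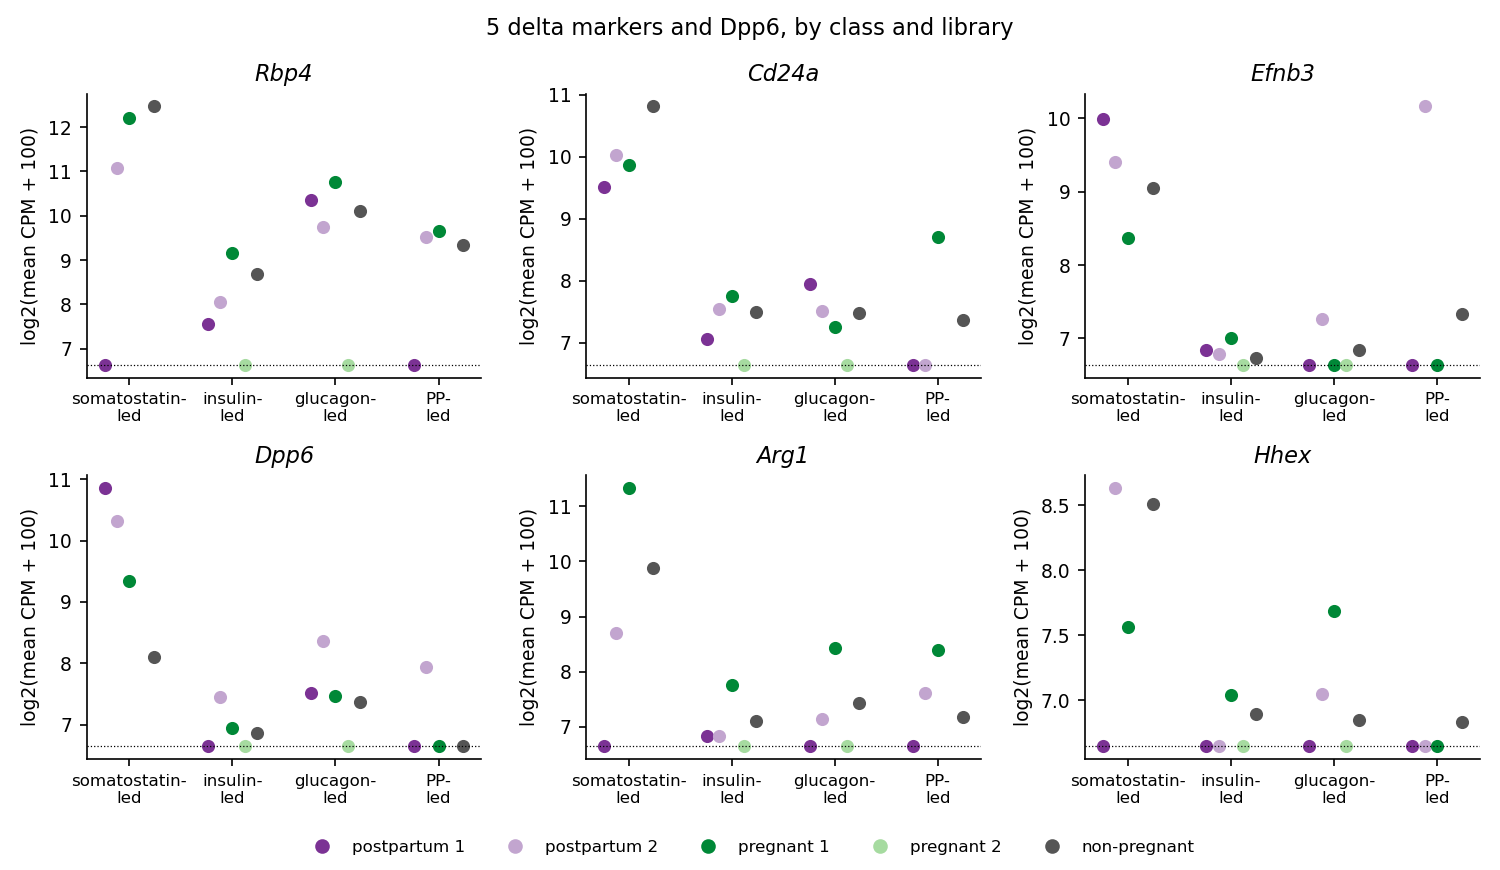
Levels of 5 delta markers and Dpp6, as log2(mean CPM + 100), in the 4 hormone-led classes (PP-led means Ppy-led) of each library (points coloured by library, classes with at least 10 cells). The dotted line marks 0 CPM. Cd24a and Dpp6 lie above the other classes in every fitted library, whereas Rbp4, Arg1 and Hhex stand at 0 CPM in postpartum 1.

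Markers of other cell types were present at unequal levels in the members. Gamma-cell markers took 5.05%, 4.91%, 6.72%, 0% and 9.07% of member UMIs, against 1.42%, 1.85%, 2.44%, 1.43% and 2.93% in all other cells, so they were higher in 4 libraries. In members these were Ppy and Pyy alone, the values given above. The other cells are mostly insulin-led, and Ppy-led cells held more Pyy than the members. Aqp3, listed in the non-pregnant file alone, had no member UMI. Acinar markers took 0%, 0%, 0.0190%, 0% and 0.0209% of member UMIs, against 0.170%, 0.0624%, 0.00159%, 1.06% and 0.0406% in all other cells. Against the other hormone-led cells of the non-pregnant library they were higher, at 303 CPM in members and 218 CPM in those cells. Beta markers, insulin and Iapp included, took 2.59%, 1.84%, 3.10%, 0.348% and 4.92% of member UMIs, against 26.6% to 47.1% in the other cells. Ductal markers (Krt8, Krt18, Epcam and Spp1, with 3 more in the non-pregnant file) took 0.254%, 0.173%, 0.0633%, 0% and 0.145% of member UMIs, against 0.0322%, 0.0379%, 0.0731%, 0.0254% and 0.0959% elsewhere, and were higher in 3 libraries. The member shares came from 6, 25, 10, 0 and 146 UMIs. Of the duct genes listed in the non-pregnant file alone, Krt19 and Cftr had 0 UMIs in its members, and Sox9 had 9 UMIs in 4 members (18.4 times the level of the other hormone-led cells, 6.74 to 48.9). Macrophage markers took 0%, 0%, 0.0190%, 0% and 0.0239% of member UMIs, against 0.0192%, 0.0244%, 0.0225%, 0.0254% and 0.0138% elsewhere. The part of these cell types in the results was not tested. Endothelial markers were at 0 in 3 of the 5 libraries.

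Few genes separated the members from the other hormone-led cells. Against insulin-led cells 24 of 2394 genes were called (1%), 5 higher (0.209%) and 19 lower (0.794%). Against glucagon-led cells 25 were called (1.04%), 12 higher (0.501%) and 13 lower (0.543%), and against Ppy-led cells 20 (0.835%), 10 higher (0.418%) and 10 lower (0.418%). The split moved with the count model: DESeq2 called 11 higher and 143 lower against insulin-led cells and 8 higher and 46 lower against glucagon-led cells, and edgeR 15 and 114, and 20 and 45. Of the 69 calls, 17, 12, 13 and 21 were kept without postpartum 1, postpartum 2, pregnant 1 and the non-pregnant library. In all 51 genes were called at least once, and 2 were higher (0.0835%) and 2 lower (0.0835%) than each of the 3 classes. Called genes that did not differ from all 3 classes and are on none of the chosen gene lists are named here after their values were seen.

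Dpp6, an auxiliary subunit that traffics A-type potassium channels, joined Cd24a as higher than each class. It had 1752 and 1183 CPM in the postpartum members, 546 and 0 CPM in the pregnant ones and 175 CPM in the non-pregnant ones, from 2, 9, 6, 0 and 9 UMIs. Insulin-led cells had 0, 73.7, 23.0, 0 and 15.8 CPM. The members were above every other class in all 4 fitted libraries, with log2 differences of 2.61 (SE 0.49, adjusted p 0.0027), 2.05 (adjusted p 0.029) and 2.69 (adjusted p 0.0057) against insulin-led, glucagon-led and Ppy-led cells. The call against glucagon-led cells was lost without any one of these 4 libraries (adjusted p 0.113 to 0.304), and the call against insulin-led cells without postpartum 2 (0.0870). The call against Ppy-led cells was lost without postpartum 1 (0.0547), postpartum 2 (0.123) or pregnant 1 (0.127).

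Genes called higher against insulin-led or glucagon-led cells also included Clu, Lima1 and 2 granins. Clu, a secreted chaperone, had 836, 1565, 724, 0 and 1513 CPM in members and 20.4, 111, 216, 0 and 214 CPM in insulin-led cells, and was called higher than insulin-led (2.41, adjusted p 0.027) and glucagon-led cells (2.30, adjusted p 0.040). Lima1, an actin-binding protein, was called against the same classes (2.25, adjusted p 0.014, and 2.16, adjusted p 0.027). Chgb and Scg2, granins of the dense-core granule, were called higher than glucagon-led cells (2.57 and 2.17, adjusted p 0.027 and 0.029). Chgb had 4822, 5296, 4382, 0 and 5715 CPM in members, 1004, 1163, 1123, 0 and 1102 CPM in glucagon-led cells and 7441, 6369, 4952, 10897 and 2495 CPM in insulin-led cells. Scg2 and Chgb were not called against insulin-led cells (-0.76 and -0.44). They were also the 2 genes with TGACGTCA upstream among the 13 called-higher genes with a listed promoter, beside 1.77% of all such genes. Of 3 delta markers with a listed promoter 1 had it, Sst. A link of the palindrome to these levels was not tested.

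Other genes were called against glucagon-led or Ppy-led cells. Mlxipl, the glucose-responsive factor ChREBP, had 874, 302, 904, 0 and 362 CPM in members, 0, 33.6, 0, 0 and 44.6 CPM in glucagon-led cells and 178, 214, 98.5, 0 and 154 CPM in insulin-led cells. It was called against glucagon-led (2.36, adjusted p 0.011) and Ppy-led cells (2.16, adjusted p 0.045). Sez6l, a brain-enriched membrane protein, had 3248, 1808, 567, 16667 and 738 CPM in members and 0, 148, 105, 0 and 164 CPM in glucagon-led cells (3.17, adjusted p 0.015). In pregnant 2 its 5 UMIs came from 1 of the 6 members. Shisal2b was called against glucagon-led and Ppy-led cells (2.89 and 2.93, adjusted p 0.0041 and 0.0057). The ephrin ligand Efna5 (2.43, adjusted p 0.0064) and the zinc finger factor St18 (2.24, adjusted p 0.045) were called against Ppy-led cells.

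The genes lower in members were mostly known beta-cell or alpha-cell genes, and many were not seen at all. Of 33 genes called lower in any comparison, 22 had no member UMI outside the non-pregnant library and 3 had none in any library. A fitted difference from such zeros depends on the constant of 100 CPM. The rule itself turns away cells with much insulin or glucagon RNA, so the beta-cell and alpha-cell genes are partly set by the choice of cells.

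Ttr, the thyroxine and retinol carrier made in alpha cells, was lower than in each class. It had 927 and 195 CPM in the postpartum members, 162 and 0 CPM in the pregnant ones and 131 CPM in the non-pregnant ones, from 19 UMIs in all. Glucagon-led cells had 65244, 65077, 20243, 16327 and 20164 CPM and insulin-led cells 1616, 3457, 1962, 0 and 1635 CPM. The log2 differences were -6.96 (SE 0.55, adjusted p 2.8e-10), -2.23 (adjusted p 0.034) and -2.98 (adjusted p 0.0057) against glucagon-led, insulin-led and Ppy-led cells, with lower levels in all 4 fitted libraries. The first held under every alternative run, whereas the call against insulin-led cells was lost without any one of the 4 libraries (adjusted p 0.0916 to 0.461), and so was the call against Ppy-led cells (0.0636 to 0.193).

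Mt2, a metal-binding metallothionein, was the other gene lower than each class. It had 0, 212, 1335, 0 and 902 CPM in members, 3161, 1687, 6376, 4572 and 2999 CPM in insulin-led cells and 3747, 3157, 3490, 8696 and 944 CPM in glucagon-led cells. The differences were -2.71 (SE 0.64, adjusted p 0.022), -2.63 (adjusted p 0.032) and -2.69 (adjusted p 0.045) against insulin-led, glucagon-led and Ppy-led cells. In the non-pregnant library members and glucagon-led cells had nearly the same level. All 3 calls were lost without postpartum 1, postpartum 2 or pregnant 1 (adjusted p 0.128 to 0.405).

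Beta-cell genes were prominent among them. Of 4 tested beta markers outside the hormones, 4 were called lower than insulin-led cells, beside 0.794% of all genes. Their median was -3.59, against -0.31 over all 2394 genes. G6pc2, the islet glucose-6-phosphatase, had 0, 0, 193, 0 and 21.5 CPM in members and 3174, 2952, 2248, 4833 and 1804 CPM in insulin-led cells (-4.46, SE 0.57, adjusted p 1.4e-05). Ucn3, the urocortin that stimulates delta cells, had 2 UMIs in all members, both in the non-pregnant library, and 1457, 1862, 1936, 7607 and 957 CPM in insulin-led cells (-4.20, adjusted p 2.2e-05). Slc30a8, the granule zinc transporter, was lower than both insulin-led (-2.59, adjusted p 0.0031) and glucagon-led cells (-2.85, adjusted p 0.0019), with 0, 0, 0, 0 and 39.9 CPM in members. Mafa, a beta-cell transcription factor, had no member UMI, which puts it at least 3.33-fold below insulin-led cells in postpartum 2 and at least 3.49-fold below in pregnant 1, taking 3 counts per library as the limit of a count of 0. In the non-pregnant library Mafa had 1 UMI in 656 insulin-led cells, so no difference could be read there.

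Of 16 tested genes of the response to lactogens 2 were called lower than in insulin-led cells and 0 higher, beside 0.794% and 0.209% of all genes, and 5 lay above 0. Prlr, the prolactin receptor, had 636 and 250 CPM in postpartum members, 0 and 0 CPM in pregnant ones and 74.8 CPM in non-pregnant ones, from 7 UMIs. Insulin-led cells had 6525, 6842, 1233, 1508 and 1010 CPM (-3.51, SE 0.67, adjusted p 0.0031). Against glucagon-led and Ppy-led cells Prlr was not called (0.23, adjusted p 0.939, and 0.67, adjusted p 0.720). Ddc, which makes serotonin from its precursor, had 6 UMIs in all members and was also lower than in insulin-led cells (-3.30, adjusted p 0.0020). Tph1, the serotonin-synthesis enzyme that lactogens raise in mouse beta cells, had no member UMI in any library. Pcsk1, the proinsulin convertase, had 0, 786, 197, 0 and 0 CPM in members (-2.82, adjusted p 0.013), whereas Pcsk2, the convertase of glucagon, stood at 15298, 12813, 11241, 0 and 6128 CPM against 11401, 14682, 8927, 12861 and 6250 CPM in insulin-led cells (0.04, adjusted p 0.953). Ero1lb, a disulfide-forming enzyme of the endoplasmic reticulum, was lower than in insulin-led cells (-4.30, adjusted p 1.4e-05).

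Against glucagon-led cells the alpha-cell factor Irx1 was lower. It had no member UMI, against 792, 315, 339, 0 and 391 CPM in glucagon-led cells, which puts it at least 6.73-fold below glucagon-led cells in the non-pregnant library (fitted -2.20, adjusted p 0.040). Slc7a2, an arginine transporter, was lower as well (-2.57, adjusted p 0.0035). In all 3 of 5 tested alpha markers were called lower, beside 0.543% of all genes. Lpl, lipoprotein lipase, had 0, 0, 75.3, 0 and 14.2 CPM in members and was lower than glucagon-led (-3.44, adjusted p 0.0019) and Ppy-led cells (-2.61, adjusted p 0.045), with -2.30 (adjusted p 0.0505) against insulin-led cells.

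**Figure D3:**
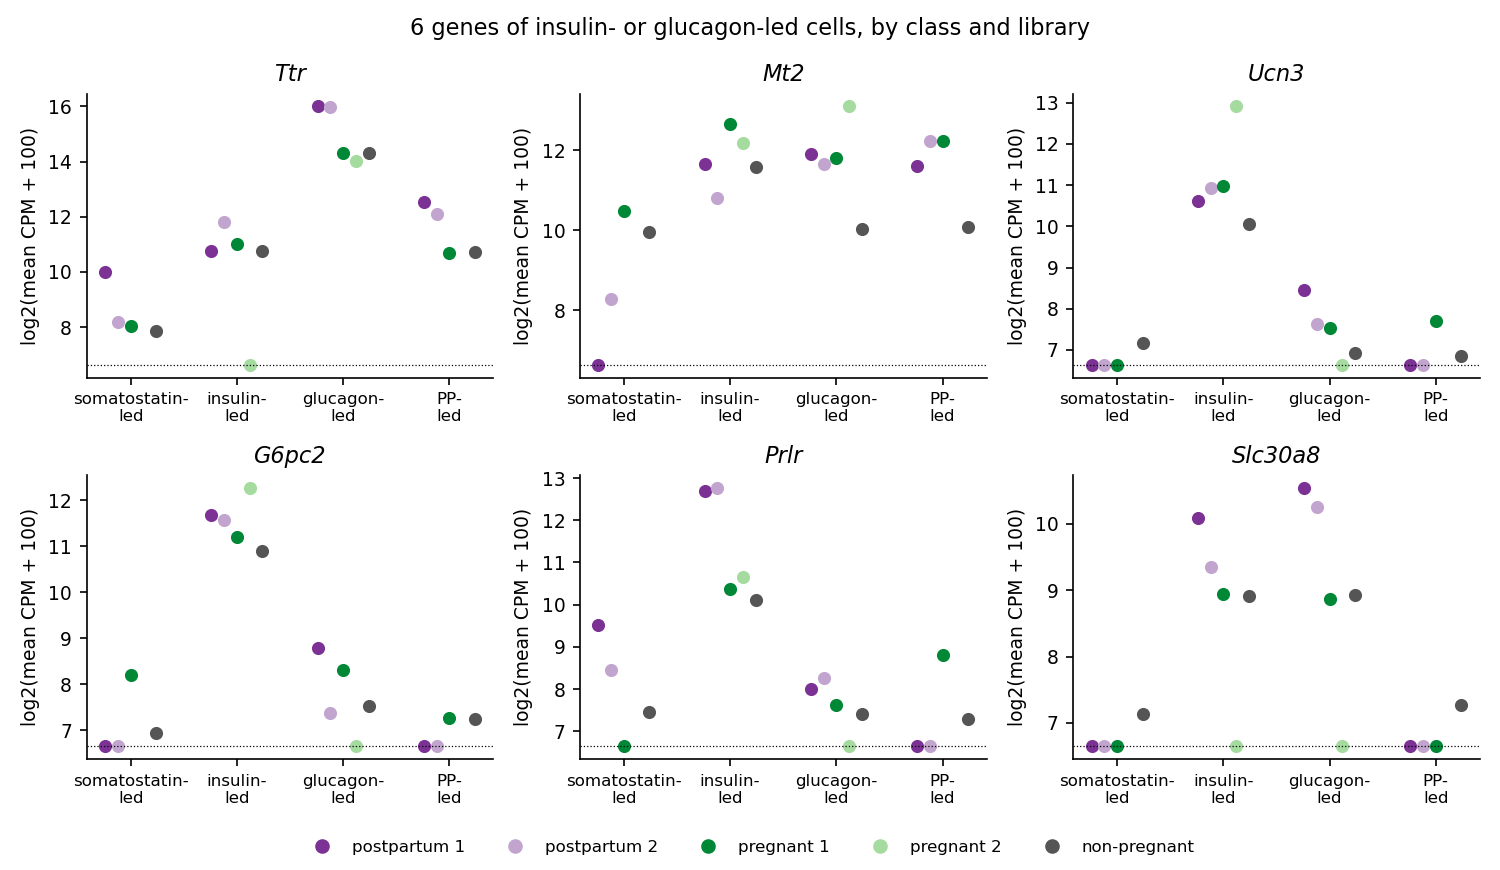
Levels of Ttr, Mt2, Ucn3, G6pc2, Prlr and Slc30a8, as log2(mean CPM + 100), in the 4 hormone-led classes of each library (points coloured by library, classes with at least 10 cells). The dotted line marks 0 CPM. Ttr is lower in somatostatin-led cells than in the other classes of the same library, and Ucn3 lies at 0 CPM in 3 of the 4 fitted libraries.

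Among 13 tested genes of excitability and glucose sensing 3 were lower than in insulin-led cells (G6pc2, Ucn3 and Slc30a8, already counted as beta markers). Against glucagon-led cells 2 were lower and against Ppy-led cells 1, with 0 higher. Of all genes 0.794%, 0.543% and 0.418% were called lower in these comparisons, and 0.209%, 0.501% and 0.418% higher. The medians of the 13 genes were -0.54, -0.31 and -0.18, against -0.31, -0.12 and 0.03 over all genes. Of 20 genes of protein folding in the endoplasmic reticulum 17 lay below 0 against insulin-led cells (median -0.72). Only Ero1lb was called lower, beside 0.794% of all genes. Among 17 tested islet transcription factors Mafa was lower than in insulin-led cells, Irx1 lower than in glucagon-led cells and St18 higher than in Ppy-led cells. In the same directions 0.794%, 0.543% and 0.418% of all genes were called. Isl1, a factor of all islet endocrine cells, had 1563, 347, 1534, 0 and 1204 CPM in members and 565, 585, 472, 0 and 400 CPM in insulin-led cells (0.87, adjusted p 0.604). Of 49 tested genes of oxidative phosphorylation 6 lay above 0 against insulin-led cells (median -0.49), and of 61 ribosomal protein genes 15 did (median -0.23), against a median of -0.31 over all genes. Of 27 immediate early and stress genes 17, 18 and 20 lay above 0 against insulin-led, glucagon-led and Ppy-led cells, with medians of 0.61, 0.29 and 0.35. Gnas, the stimulatory G protein subunit behind cyclic AMP, had 5893, 9355, 8180, 48544 and 8131 CPM in members and 3691, 4009, 4928, 1542 and 3524 CPM in insulin-led cells (1.16, adjusted p 0.109).

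The non-pregnant library allowed the whole feature list to be read in 39 members against 656 insulin-led, 92 glucagon-led and 33 Ppy-led cells as 1 pool. Of 3027 features with enough UMIs, 104 (3.44%) were at least 4-fold higher in members and 74 (2.44%) at least 4-fold lower. With 1 library this comparison has no replicate, and the 95% intervals of each ratio cover counting error only. Among features that the other 4 files do not list, Cacna1h, a low-voltage-activated T-type calcium channel, had a ratio of 54.0 (24.9 to 127), from 24 UMIs in 14 members. Ptprz1, a receptor tyrosine phosphatase of the nervous system, had a ratio of 39.7 (21.2 to 76.7), from 30 UMIs in 11 members. Defb36, a beta-defensin, had the largest ratio (63.0, 21.4 to 224) from 14 UMIs in 10 members. Lactbl1 and BC037039 were the most widely seen, with 79 UMIs in 29 members (27.8) and 59 UMIs in 25 members (34.9). The other 10 of the 15 features named by size had ratios of 15.3 (the acid-sensing channel Asic2) to 37.5 (Gm43135). The 15 were picked by this ratio out of 113 such features with at least 10 member UMIs. Their large ratios are thus partly set by the choice and are no test.

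**Figure D4:**
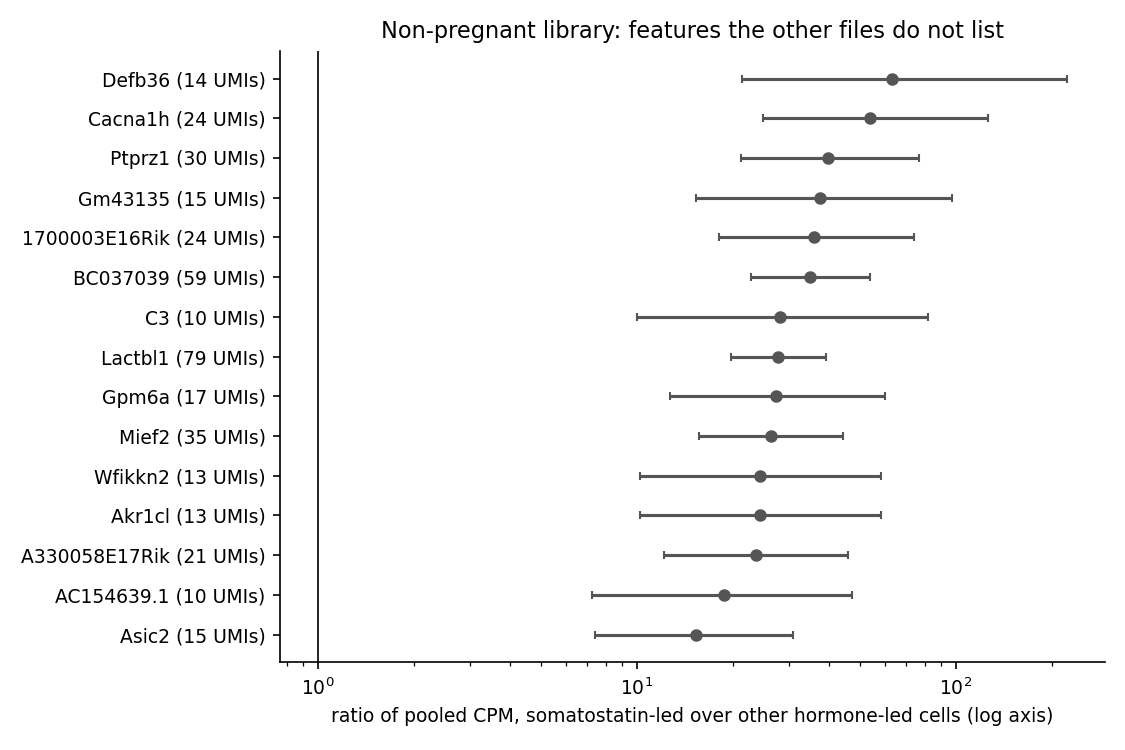
Ratio of pooled CPM in 39 somatostatin-led cells over all other hormone-led cells of the non-pregnant library, for the 15 features with the largest ratio among those listed in that file alone and with at least 10 member UMIs (log axis). Bars are 95% counting intervals. The features were picked by this ratio in these same cells, so its size is no test.

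Neuronal and adhesion genes were read against the same pool, which is mostly insulin-led cells. Of 14 such genes with enough UMIs 7 were at least 4-fold higher and 0 lower, beside 3.44% and 2.44% of all features. Their median log2 ratio was 2.02, against 0.15 over all features. The 7 included Gap43, a growth-cone protein (12.04, 6.92 to 20.4), the adhesion molecule Cadm1 (4.92, 2.91 to 7.95) and Efna5 (4.64, 2.34 to 8.52). The contrast was smaller with glucagon-led cells: over the 17 shared genes of the list, members held 3393 CPM in the non-pregnant library, against 2838 CPM in glucagon-led and 1750 CPM in insulin-led cells, and in pregnant 1 members held 3295 CPM, against 3613 CPM in glucagon-led cells. Over 11 tested genes the median was 0.10 against glucagon-led and 0.61 against insulin-led cells. Of 5 delta markers 5 were at least 4-fold higher, beside 3.44% of all features. The 5 ran from Hhex (11.3) through Rbp4 (15.4), Arg1 (19.5) and Cd24a (21.1) to Efnb3 (35.6). Among receptors, the fatty acid receptor Ffar4 was 7.16-fold higher (3.62 to 13.3), with a UMI in 28.2% of members, against 1.83% of insulin-led, 15.2% of glucagon-led and 12.1% of Ppy-led cells. The ghrelin receptor Ghsr, a known delta-cell receptor, had a UMI in 0 of 39 members, with an exact 95% upper bound of 9.03% that covers cells with a UMI and not cells expressing the gene. Prlr was lower than in the pool (0.0885, 0.0241 to 0.227). It had a UMI in 7.69% of members, against 62.3% of insulin-led, 7.61% of glucagon-led and 6.06% of Ppy-led cells. The growth hormone receptor Ghr stood at 2.42 (1.65 to 3.43).

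Part of the immediate early and stress list was higher in these members than in the same pool, which is mostly insulin-led cells. Over the 30 shared genes of the list, members held 16793 CPM in this library. Ppy-led cells held 12799 CPM, glucagon-led cells 9590 CPM and insulin-led cells 7830 CPM. Of 21 such genes 7 were at least 4-fold higher, beside 3.44% of all features, and the other 14 were not, among them Hsp90aa1 (1.05, 0.748 to 1.44). The 7 included Ier2 (8.98, 6.88 to 11.6; 83 UMIs in 28 members), Fos (4.74, 3.44 to 6.41) and Jun (4.19, 3.15 to 5.50). As a mean over cells, Jun had 1520 CPM in members, 1080 CPM in Ppy-led, 745 CPM in glucagon-led and 205 CPM in insulin-led cells. Hspa1b, a heat shock protein, was 32.8-fold higher, but its 51 UMIs came from 6 members, and 21 of them from 1 cell. Mitochondrially encoded RNA took 2.33% of member UMIs, against 4.61% in insulin-led, 2.74% in glucagon-led and 3.05% in Ppy-led cells, and single members ranged from 0.508% to 5.44%. Of 73 ribosomal protein genes and 70 genes of oxidative phosphorylation 0 passed 4-fold in either direction. Of all features 3.44% were at least 4-fold higher and 2.44% lower.

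No gene was called between the states. In the 4 libraries with at least 10 members, limma tested 2340 genes and called 0 (0%) for pregnant over non-pregnant, 0 (0%) for postpartum over non-pregnant and 0 (0%) for postpartum over pregnant, with 171, 293 and 311 genes at an unadjusted p under 0.05. The quasi-likelihood test of edgeR called 0 of 1573 genes in each comparison (6, 34 and 9 unadjusted), and DESeq2 called 0 (3, 18 and 3 unadjusted). The spread rests on 1 residual degree of freedom, from the postpartum pair, and 328 tested genes (14.02%) were at 0 in both postpartum libraries. With no filter on low values, in a fit kept to genes that varied within the postpartum pair, 2, 4 and 3 genes were called. That fit gave each gene the spread typical of genes at its level rather than its own. Its p-values thus do not measure each gene's own spread between libraries. A count of 0 does not show that no gene changed.

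Among the genes named by their smallest p, those with higher values in postpartum members included nuclear RNAs and immediate early genes. Meg3, a maternally expressed non-coding RNA, had 13137 and 13281 CPM in the postpartum members, 3577 and 0 CPM in the pregnant ones and 1979 CPM in the non-pregnant ones. The postpartum members lay above all others, with log2 differences of 2.68 over non-pregnant (SE 0.06, adjusted p 0.199) and 1.86 over pregnant (SE 0.06, adjusted p 0.111), neither of which passed. In the fit with no filter Meg3 was called in both comparisons, but that fit did not use the gene's own spread. In other alternatives Meg3 was not called. Insulin-led cells moved likewise, with 5306, 7033, 1845, 0 and 2126 CPM. Malat1, another nuclear RNA, had 15522, 13154, 2946, 0 and 2036 CPM in members. Its log2 differences were 2.75 over non-pregnant and 2.24 over pregnant. Neither passed, and both were called in the fit with no filter, with the same limit. Fosb had 3810 and 4230 CPM in postpartum members, 122 and 0 CPM in pregnant ones and 161 CPM in non-pregnant ones, and Jun 3915, 4198, 338, 0 and 1520 CPM. In insulin-led cells Jun had 2241, 2361, 182, 0 and 205 CPM, so the same libraries were high in both classes.

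As a list, the immediate early and stress genes lay above 0 in 22 of 24 cases for postpartum over pregnant, with a median of 1.06 against -0.22 over all genes. For postpartum over non-pregnant 16 of 24 lay above 0 (median 1.07, all genes -0.18), and for pregnant over non-pregnant 7 of 24 (median -0.45, all genes 0). The comparisons share libraries. Summed over the list, members held 39384 and 52287 CPM in the postpartum libraries, 15572 and 0 CPM in the pregnant ones and 16793 CPM in the non-pregnant one. Insulin-led cells held 31882, 34293, 10774, 16292 and 7830 CPM. Taken as members minus insulin-led cells within each library, 12 of 25 genes lay above 0 for postpartum over pregnant, with a median of -0.21, the same as all genes. Ductal markers were also higher in postpartum members, at 0.254% and 0.173% of UMIs, against 0.0633% and 0% in pregnant and 0.145% in non-pregnant members. Those shares rest on 6, 25, 10, 0 and 146 UMIs, over 4 genes or, in the non-pregnant library, 7. Epcam alone gave 93 of the 146. The part of ductal markers in the values of the immediate early and stress list was not tested.

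Ribosomal protein genes ran the other way. Summed, they took 17336 and 35911 CPM in postpartum members, 40194 and 52546 CPM in pregnant ones and 60403 CPM in non-pregnant ones. Insulin-led cells held 16728, 27534, 40955, 14741 and 56235 CPM, with the same order except in pregnant 2. Of 60 tested ribosomal protein genes 51 lay below 0 for postpartum over non-pregnant, with a median of -1.93 against -0.18 over all genes. Of 5 delta markers 1 lay above 0 for pregnant over non-pregnant, 1 for postpartum over non-pregnant and 2 for postpartum over pregnant, with Arg1 highest in pregnant 1 (2476 CPM, against 845 CPM in non-pregnant members) and Rbp4 highest in non-pregnant ones. The genes with the smallest p for lower levels in pregnant and postpartum members, Chp1, Cxxc5, Rbm3, Cep83os and Spock2, had 11 to 24 UMIs in non-pregnant members and 0 in all others, so their levels cannot be told apart from depth.

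The last comparison asked whether a state moved the members differently from the insulin-led cells of the same library, so that shifts shared by both classes cancel. Of 2485 genes, 0 (0%) were called for pregnant over non-pregnant, 0 (0%) for postpartum over non-pregnant and 1 (0.0402%) for postpartum over pregnant, with 1, 7 and 12 at an unadjusted p under 0.05. Both edgeR and DESeq2 called 0 in each (6, 50 and 10, and 4, 67 and 22 unadjusted). The limma fit here too gave each gene the spread typical of genes at its level. The 1 gene was Scg2, secretogranin II of the dense-core granule. Members had 5500 and 7122 CPM of Scg2 in the postpartum libraries, 10078 CPM in pregnant 1 and 6540 CPM in the non-pregnant one, from 7, 58, 86 and 345 UMIs. Insulin-led cells had 12656 and 10673 CPM postpartum, 8114 CPM in pregnant 1 and 5745 CPM non-pregnant. Members thus lay below insulin-led cells in both postpartum libraries and above them in the other 2.

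The difference of differences for Scg2 was -1.19 (SE 0.28, limma adjusted p 0.048) for postpartum over pregnant and -1.07 (adjusted p 0.326) for postpartum over non-pregnant. The first call rests on 1 pregnant library and was lost under 9 of 11 alternatives, with adjusted p from 0.00105 to 1 over them. When the 6 members of pregnant 2, which had no Scg2 UMI, were let in, the value turned to 2.21. Chgb, a second granin, stood at -1.60 for postpartum over non-pregnant (adjusted p 0.997), and Hspa5, the main chaperone of the endoplasmic reticulum, at -1.50 for postpartum over pregnant (adjusted p 1). Over 32 granule and exocytosis genes the median was -0.55 for postpartum over pregnant, against -0.21 over all genes.

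**Figure D5:**
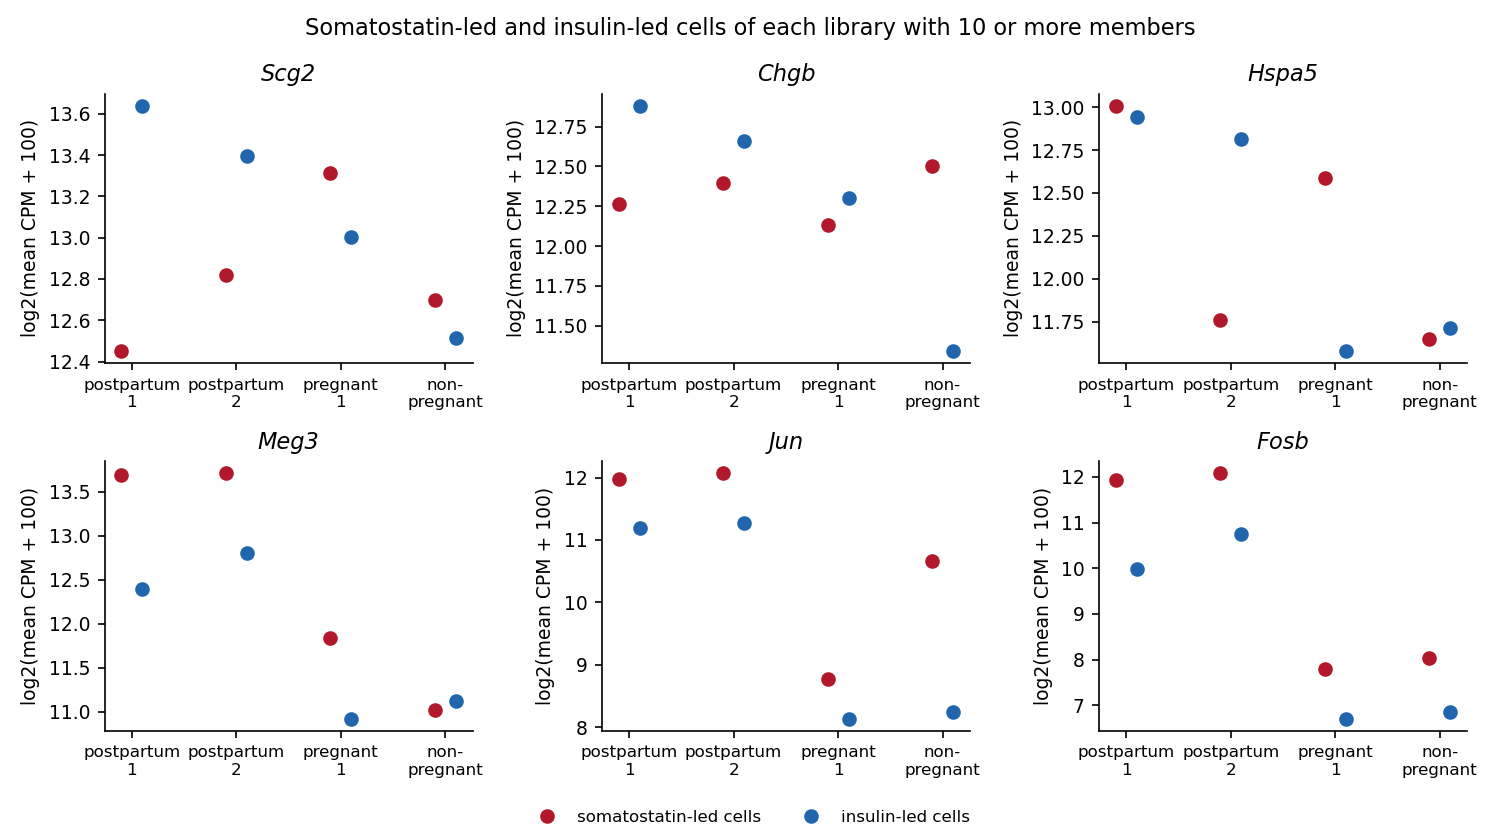
Levels of Scg2, Chgb, Hspa5, Meg3, Jun and Fosb, as log2(mean CPM + 100), in somatostatin-led (red) and insulin-led cells (blue) of the 4 libraries with at least 10 members. Axes do not start at 0. Scg2 is lower in somatostatin-led than in insulin-led cells in both postpartum libraries and higher in the other 2, while Meg3, Jun and Fosb are highest in both classes in the postpartum libraries.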

How the data were processed

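Viable islet cells were captured by inDrop and polyadenylated RNA was sequenced, per the labels. The submitters' processing notes name Partek 8.0, Bowtie 1.1.1 and the builds GRCm38 and mm10, with no role given. The authors deposited 4 tables as log2(counts per 1000000 + 1) per cell over 6695 features, read from the values. They deposited the non-pregnant library as a signal over 40930 features in which every cell sums to 1 constant, also read from the values. The counting steps behind those totals were not stated.

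The deposited log2 values were turned back to a linear scale, and UMI counts were recovered from the step of 1 molecule in each cell (tolerance 0.1). The 6626 shared genes were matched by symbol (6543) or RefSeq synonym (83). Cells are numbered, so barcodes shared by libraries were not counted. Scrublet (scanpy 1.11.5) marked 9, 1, 1, 0 and 3 cells, 1 of them a member, and none was removed from the main results.

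CPM left out 8 hormone genes. Mean CPM per class and library, with a minimum of 10 cells and a mean of 100 CPM, was tested as log2(CPM + 100) with limma 3.58.1 in R 4.3.3 at an adjusted p of 0.05. Classes were compared within libraries. With edgeR 4.0.16 and DESeq2 1.42.0, recovered UMI counts were tested as alternatives, besides other constants, filters, cell rules, left-out libraries and replicate blocks. Tests were checked on simulated data.

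Named genes were the given markers, the members of the chosen lists, genes called against all 3 classes, the smallest p between states and the 15 features with the largest ratio in the non-pregnant file alone. The members and lists were chosen with earlier results of these data known. Some called genes are not reported here.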

Additional observations from a re-analysis of the deposited data

Results flagged for a closer look

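Scg2, secretogranin II, was flagged because its change from pregnant to postpartum libraries differed between somatostatin-led and insulin-led cells, with a log2 difference of differences of -1.19 (SE 0.28, limma adjusted p 0.048). Somatostatin-led cells had 5500 and 7122 CPM in the postpartum libraries and 10078 CPM in pregnant 1, and insulin-led cells 12656 and 10673 CPM postpartum and 8114 CPM in pregnant 1. The value rests on 7, 58 and 86 member UMIs. With pregnant 2 let in, where the 6 members had no Scg2 UMI, it was 2.21, and without the non-pregnant library its adjusted p was 0.373.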

How the results depend on the processing

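Where a value moved, the cause was not tested unless named here. Between states, 2 genes (pregnant over non-pregnant), 4 (postpartum over non-pregnant) and 3 (postpartum over pregnant) were called with no filter on low values, in a fit kept to genes that varied within the postpartum pair, Meg3 and Malat1 among them in both postpartum comparisons. Without pregnant 1, 80 were called for postpartum over non-pregnant, and without the non-pregnant library 176 for postpartum over pregnant, all at 0 in both postpartum libraries. The other alternatives run called 0. Between classes, the counts of 24, 25 and 20 calls against insulin-led, glucagon-led and Ppy-led cells changed as follows. With a constant of 10 CPM 7 were called against Ppy-led cells, and with 1000 CPM 15 against glucagon-led and 3 against Ppy-led cells. With no filter 61, 13 and 7 were called, and with pooled UMIs 9 against Ppy-led cells. With edgeR 129 were called against insulin-led and 65 against glucagon-led cells, and with DESeq2 154, 54 and 6, over more genes. With any number of cells allowed 7 were called against glucagon-led and 0 against Ppy-led cells. With leading hormones at 10% or more 0, 1 and 0 were called, and with a second hormone under 0.2 of the first 11 against glucagon-led and 6 against Ppy-led cells. Leaving out 1 library gave 6 to 35 calls against insulin-led, 3 to 30 against glucagon-led and 0 to 24 against Ppy-led cells.

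The single call for postpartum over pregnant relative to insulin-led cells went to 0 with constants of 10 or 1000 CPM, no filter, edgeR, DESeq2, any number of cells, either block or without the non-pregnant library. For postpartum over non-pregnant 1 was called with Scrublet doublets left out. The share of members was 0.359% in postpartum 1, 0.710% in postpartum 2 and 0% in pregnant 1 with Sst at 10% or more. Among cells with at least 200 UMIs it was 0.552% in postpartum 1 and 0% in pregnant 2.

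Some gene values changed sign. Rbp4 against glucagon-led cells was -0.16 with 10 CPM, and with 1 library left out it ran from -0.063 (without the non-pregnant one) to 1.90 (without postpartum 1). Ywhaz for postpartum over pregnant was 0.60 with any number of cells, the replicate block and the crossed block. Relative to insulin-led cells, the same 3 settings turned Scg2 to 2.21 and Hspa5 to 1.35 for postpartum over pregnant. Hspa5 for pregnant over non-pregnant was -1.78 with any number of cells. Pcsk2 for pregnant over non-pregnant was -0.51 with edgeR, -0.61 with DESeq2 and -3.32 with any number of cells. Meg3 for postpartum over non-pregnant was -0.23 with edgeR and -0.50 with DESeq2.

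The labels give no shared animal or day for equal replicate numbers. With the replicate block 0 genes were called for postpartum over pregnant in members and 0 relative to insulin-led cells (47 and 47 unadjusted). The deviations of same-numbered members correlated at -0.15 over 1977 genes, under the limit of -0.1, so a crossed pairing, chosen after seeing the data, was run and called 0 and 0 (99 and 90 unadjusted). The all-gene median moved with the scale, to -1.19 for postpartum over non-pregnant with 10 CPM and to -0.84 against insulin-led cells with DESeq2. Depth sets what a count of 0 allows, since 3 counts correspond to 2360 CPM in postpartum 1 members and 55.1 CPM in non-pregnant ones.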
